A study of Mus musculus with 12 samples.

Results

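Cell cycle genes are described here, in fat pads from the abdomen of C57BL/6 females, as a set of 43 genes of DNA replication and mitosis. The members were chosen by name: every probe set that the array platform assigns to 1 of the 43 symbols was taken, and the probe sets of each gene were averaged. Of the 43 genes 42 were measured, by 97 probe sets, among 18194 genes in all. Ccnb1 has no probe set named for it in the annotation used here and is not analysed. The mice were wild type or p47phox null (labelled P47KO), and each genotype received either casein or a high fat diet from postnatal day 28 for 13 weeks. p47phox, encoded by Ncf1, is the cytosolic subunit that activates the NADPH oxidase of phagocytes. Each of the 12 arrays holds the total RNA of 1 fat pad pool. There are 3 pools for each of 4 groups, written WT/casein, null/casein, WT/HFD and null/HFD for genotype and diet (HFD, high fat diet). The labels give neither the null allele nor the number of animals in a pool, so the p-values measure the spread between pools.

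A dividing cell first copies its DNA and then separates the copies. The MCM helicase opens the double helix, ribonucleotide reductase and thymidylate enzymes supply the nucleotides, and cyclins bound to the kinase Cdk1 drive entry into mitosis. Aurora, Polo-like and checkpoint kinases control the spindle, and the anaphase-promoting complex with Cdc20 ends mitosis by destroying cyclins. Most of these genes are transcribed mainly in cycling cells, replication genes largely under E2F factors and mitosis genes under complexes that bind CHR and CCAAT elements. Mature adipocytes do not divide, whereas the granulosa cells of growing ovarian follicles divide rapidly. Inha, the inhibin alpha subunit made by granulosa cells, was therefore read in every pool beside the cell cycle genes. The gonadal fat of female mice lies against the ovary and oviduct; the labels call the fat abdominal.

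The promoters of 5 members are printed to show the elements that these genes share: Ccnb2, Cdk1, Cdc20 and Top2a are mitosis genes that rose in the null pools on HFD, and Mcm6 is a helicase gene with E2F matches. The sequences are from RefSeq (build GRCm38.p6), the 250 bases before the start of each gene, 5′ to 3′ on the strand of the gene. Capitals mark matches, on either strand, to the CHR element (TTTGAA or TTCGAA), the CCAAT box (CCAAT) and the E2F site (TTCCCGC or TTCGCGC or TTGCCGC or TTGGCGC). The promoter of Ccnb2 lies at chr9:70421555-70421804, minus strand, that of Cdk1 at chr10:69352913-69353162, minus strand, and that of Cdc20 at chr4:118437344-118437593, minus strand. The promoter of Top2a lies at chr11:99024190-99024439, minus strand, and that of Mcm6 at chr1:128359706-128359955, minus strand.
Ccnb2: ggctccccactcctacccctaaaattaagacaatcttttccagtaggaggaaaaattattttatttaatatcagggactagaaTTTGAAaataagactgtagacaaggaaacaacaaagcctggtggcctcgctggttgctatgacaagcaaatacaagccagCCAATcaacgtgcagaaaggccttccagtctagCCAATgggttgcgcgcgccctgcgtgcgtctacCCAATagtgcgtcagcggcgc
Cdk1: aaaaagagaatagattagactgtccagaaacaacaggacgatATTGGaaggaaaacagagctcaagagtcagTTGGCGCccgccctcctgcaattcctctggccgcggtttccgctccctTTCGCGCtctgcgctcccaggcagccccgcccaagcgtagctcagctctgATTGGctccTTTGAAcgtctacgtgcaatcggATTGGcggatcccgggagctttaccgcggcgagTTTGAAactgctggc
Cdc20: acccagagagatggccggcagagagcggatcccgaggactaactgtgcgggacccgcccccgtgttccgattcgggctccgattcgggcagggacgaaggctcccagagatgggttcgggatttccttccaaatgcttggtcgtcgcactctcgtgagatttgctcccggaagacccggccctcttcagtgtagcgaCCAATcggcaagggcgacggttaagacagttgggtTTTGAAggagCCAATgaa
Top2a: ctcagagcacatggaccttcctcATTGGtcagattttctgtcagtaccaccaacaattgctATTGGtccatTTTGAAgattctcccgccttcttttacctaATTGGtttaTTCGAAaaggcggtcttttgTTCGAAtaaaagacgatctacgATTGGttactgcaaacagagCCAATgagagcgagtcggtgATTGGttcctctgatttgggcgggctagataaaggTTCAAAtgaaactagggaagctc
Mcm6: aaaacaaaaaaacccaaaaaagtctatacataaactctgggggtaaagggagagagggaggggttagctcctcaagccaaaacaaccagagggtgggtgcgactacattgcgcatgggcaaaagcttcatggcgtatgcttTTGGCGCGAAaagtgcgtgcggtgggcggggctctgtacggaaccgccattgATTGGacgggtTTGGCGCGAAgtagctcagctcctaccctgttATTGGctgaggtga

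Promoters of 36 of the 42 measured members were in the RefSeq table and were searched from 250 bases before to 50 bases after the start. A match to CHR was found in 21 of the 36 (58.3%), against 21.7% of the 27025 genes in the table. Members of mitosis held it in 19 of 25 promoters (76.0%) and members of DNA replication in 2 of 10 (20.0%). E2F matches had the opposite distribution, in 6 of 10 replication promoters (60%) and 2 of 25 mitosis promoters (8.0%), against 10.9% of all genes. The CCAAT box was in 27 of the 36 promoters (75%), against 41.1% of all genes, and it stood together with a CHR match in 19 (52.8%), against 9.65%. In the printed sequences Ccnb2, Cdk1 and Cdc20 have, among others, a CCAAT match 87, 80 and 53 bases before the start, and Cdk1 and Cdc20 have a CHR match 15 and 18 bases before it. In Mcm6 the E2F matches of both strands overlap, at 109 and 106 and at 46 and 43 bases before the start. The promoter of E2f1 held no match to these letters in this window. A match describes the letters and was not tested as a binding site.

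The authors deposited log2 values that they had centred on the median of each probe set over the 12 arrays, so 0 is the middle pool and not a level. Several libraries stand apart in markers of other tissues. For 6 skeletal muscle markers the median stood at 4.59 in WT/HFD pool 2, 3.77 in null/HFD pool 1, 3.10 in WT/casein pool 1 and 2.16 in null/casein pool 1, and at most 0.65 in the other 8 pools. In WT/casein pool 3 the medians were 4.67 for 5 liver, 2.38 for 7 adrenal gland and 1.70 for 9 lymphocyte markers. The defining markers of the labelled tissue could not be checked for presence, because centring removes the level; the median of 8 mature adipocyte markers ran from -0.58 to 0.21 over the pools. Ncf1, the gene disrupted in the null mice, was at 0.075, 0.37 and 0.85 in WT/casein pools and 0.37, 0.50 and 0.72 in WT/HFD pools 1, 2 and 3. In null pools it was at -0.19, -0.23 and -0.23 on casein and -0.29, -0.21 and -0.19 on HFD, so all 6 null pools lay below all 6 wild type pools. These are means of 3 probe sets, which differed between null and wild type pools on HFD by -1.37, -0.74 and -0.19. In the last of these probe sets WT/casein pool 1, at -0.27, lay below every null pool. The labels do not say whether the probe sets lie in the disrupted part of the gene. The number of arrays limits the precision.

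Most cell cycle genes varied together, and the pools in which they were high were not those of 1 genotype alone. In WT/casein pool 1 the median of the 42 members was 0.11, with 32 members above 0, while in pools 2 and 3 of the same group it was -0.27 and -0.20, with 3 and 4 members above 0. The 3 WT/HFD pools had medians of -0.37, -0.38 and -0.23, with 3, 0 and 6 members above 0. In null/casein pools 1, 2 and 3 the medians were 0.084, 0.27 and 0.33, with 34, 37 and 41 members above 0. Null/HFD pools 2 and 3 had the highest medians, 0.44 and 0.49, with 41 members above 0 in each, whereas pool 1 was at -0.10 with 7 members above 0. Between pairs of members the median Pearson r over the 12 pools was 0.83 (861 pairs, from -0.24 to 0.99). The pairs share the same arrays, and the value is a description. It also includes the split of the pools into 2 clusters of Inha, given below, since the member medians were lower in 1 of them. In these bulk samples fewer dividing cells and less RNA per dividing cell cannot be told apart.

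**Figure D1:**
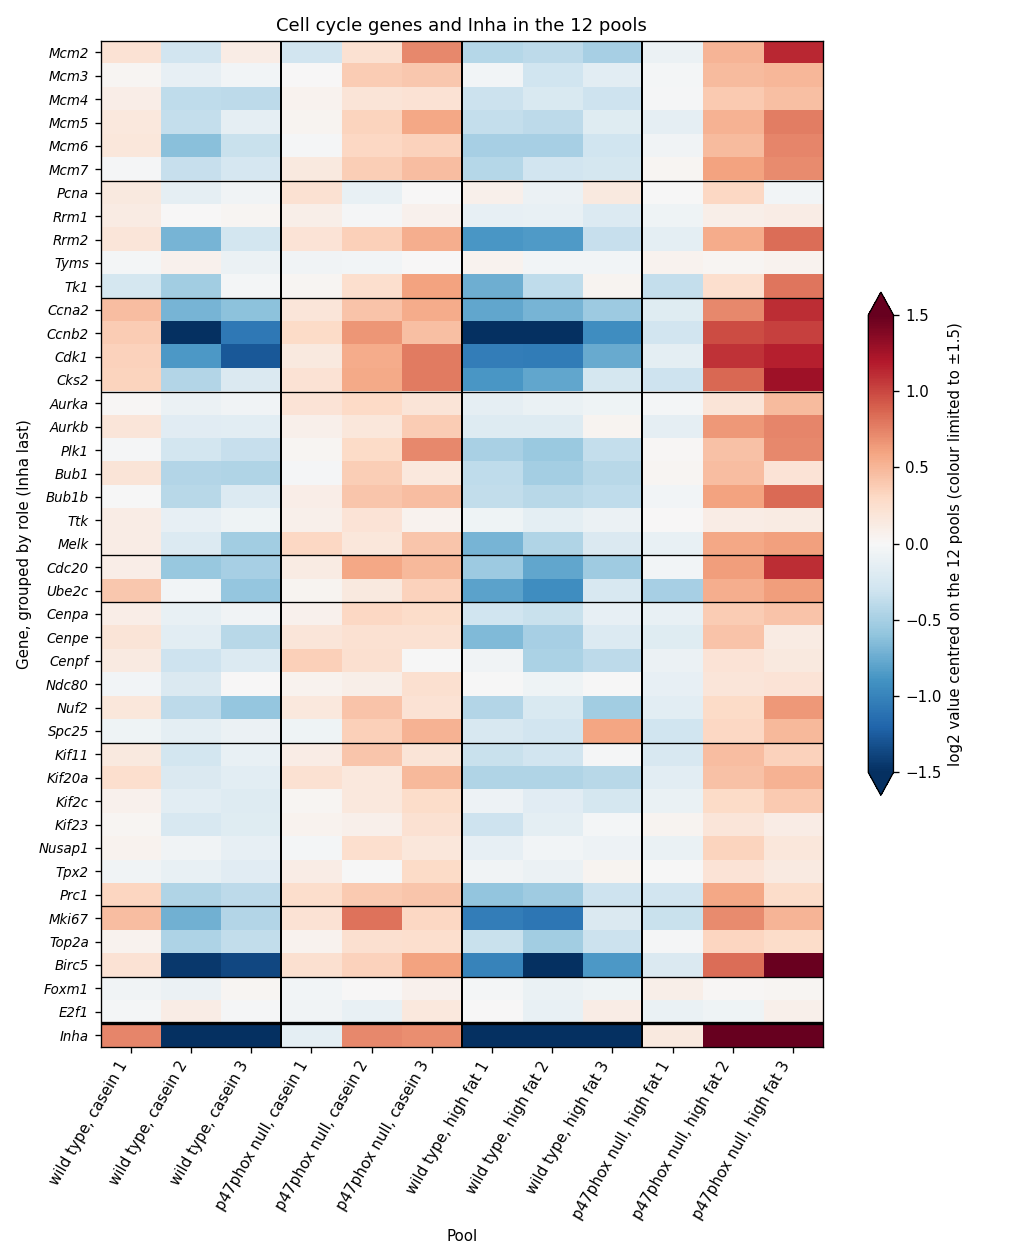
Centred log2 value of each of the 42 measured cell cycle genes (rows, grouped by role and separated by lines) and of Inha (last row) in the 12 pools (columns), with red above and blue below the median of the 12 pools and the colour limited to ±1.5. WT/casein pool 1 and the null pools other than null/HFD pool 1 are mostly red, and the rows of Pcna, Tyms, Foxm1 and E2f1 are pale throughout.

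The rise of cell cycle genes in null pools on HFD was the only difference between single groups in which members passed the test. Of the 42 members 9 rose and 0 fell in limma with Benjamini-Hochberg adjustment over 18194 genes, at an adjusted p under 0.05. Among all genes 5.92% were called, 3.21% higher and 2.71% lower. The 9 were Ccnb2, Cdk1, Cdc20, Rrm2, Bub1b, Plk1, Mcm7, Kif20a and Top2a, higher by 0.58 to 1.91, which is 1.5- to 3.77-fold. The median difference over the 42 members was 0.58, beside -0.031 over all genes, and 41 of the 42 were above 0. The null pools lay entirely above the wild type pools for 27 of the 42 and entirely below for 0, where 14.9% and 17.3% of all genes did so. Calls were close to the threshold: the adjusted p of the 9 in limma ran from 0.0307 for Mcm7 to 0.0489 for Ccnb2. With the 9 included, 22 of the 42 had an adjusted p under 0.1, and the share of all genes under 0.1 is not given here.

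Mitotic cyclins and Cdk1 had the largest median difference of any role, 1.45. Below, values are given for pools 1, 2 and 3 in that order, and where both genotypes of a diet follow each other wild type comes first. Ccnb2, which encodes cyclin B2, was at -1.55, -1.55 and -0.94 in WT/HFD and -0.29, 0.98 and 1.02 in null/HFD pools 1, 2 and 3. On casein it was at 0.39, -1.75 and -1.07 in WT/casein and 0.29, 0.66 and 0.45 in null pools. All null pools lay above the wild type pools on HFD, while WT/casein pool 1 was as high as the null/casein pools. Ccnb2 rose in null pools on HFD by 1.91 ± 0.49 (SE; adjusted p = 0.0489), or 3.77-fold. Cdk1, the kinase that cyclin B activates, was at -1.04, -1.04 and -0.75 in WT/HFD and -0.15, 1.08 and 1.17 in null/HFD pools. Its casein values were 0.35, -0.86 and -1.28 in WT/casein and 0.15, 0.56 and 0.77 in null pools, again with wild type pool 1 inside the null range. Cdk1 rose on HFD by 1.65 ± 0.42 (SE; adjusted p = 0.0479), or 3.13-fold. Ccna2, which encodes cyclin A2 of S phase and early mitosis, was at -0.78, -0.69 and -0.55 in WT/HFD and -0.18, 0.72 and 1.11 in null/HFD pools, and at 0.46, -0.69 and -0.61 and 0.18, 0.43 and 0.56 on casein. Its HFD groups did not overlap, and the difference of 1.22 ± 0.34 (adjusted p = 0.0603) did not pass. Cks2, a small subunit of the Cdk complex, differed by 1.25 ± 0.36 (adjusted p = 0.0676), with null pool 1 at -0.31 inside the wild type range.

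The called genes of the anaphase-promoting complex partners and of the mitotic and checkpoint kinases were Cdc20, Bub1b and Plk1. Cdc20, the activator of the anaphase-promoting complex, was at -0.54, -0.78 and -0.54 in WT/HFD and -0.041, 0.63 and 1.11 in null/HFD pools, and at 0.10, -0.57 and -0.50 and 0.12, 0.58 and 0.49 in the casein pools. The groups did not overlap on either diet, and Cdc20 rose on HFD by 1.19 ± 0.27 (SE; adjusted p = 0.0353). Ube2c, the ubiquitin-conjugating enzyme of that complex, differed by 0.88 ± 0.32 (adjusted p = 0.125), with overlapping groups. Bub1b, a checkpoint protein that restrains Cdc20, was at -0.37, -0.41 and -0.38 in WT/HFD and -0.036, 0.60 and 0.85 in null/HFD pools, and at -0.0043, -0.41 and -0.21 and 0.10, 0.42 and 0.46 on casein. It rose by 0.86 ± 0.20 (adjusted p = 0.0367), and its groups did not overlap on either diet. Bub1, a kinetochore kinase of the same checkpoint, was at -0.38, -0.51 and -0.42 in WT/HFD and 0.030, 0.46 and 0.20 in null/HFD pools and at 0.20, -0.44 and -0.45 and -0.019, 0.37 and 0.16 on casein. Its difference of 0.67 ± 0.18 (adjusted p = 0.0523) on HFD did not pass. Plk1, the Polo-like kinase of mitotic entry and spindle assembly, was at -0.49, -0.56 and -0.36 in WT/HFD and 0.019, 0.44 and 0.72 in null/HFD pools. On casein Plk1 was at -0.019, -0.27 and -0.35 and 0.031, 0.29 and 0.72, with no overlap on either diet. It rose on HFD by 0.86 ± 0.20 (adjusted p = 0.0367).

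The other mitotic kinases did not pass on HFD. Melk, a kinase of mitotic cells, was at -0.70, -0.45 and -0.22 in WT/HFD and -0.11, 0.58 and 0.61 in null/HFD pools, and at 0.11, -0.20 and -0.52 and 0.31, 0.17 and 0.42 on casein. It differed by 0.81 ± 0.21 (adjusted p = 0.0507), with no overlap on either diet. Aurka, the Aurora kinase of spindle poles, was at -0.14, -0.098 and -0.068 and -0.027, 0.19 and 0.47 on HFD and at 0.022, -0.090 and -0.051 and 0.21, 0.30 and 0.19 on casein, in wild type and null pools in that order. It differed by 0.31 ± 0.11 (adjusted p = 0.104) on HFD, a small difference with no overlap. Aurkb, the Aurora kinase of the chromosomal passenger complex, differed by 0.54 ± 0.21 (adjusted p = 0.138), and Ttk, a checkpoint kinase, by 0.18 ± 0.077 (adjusted p = 0.179).

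Chromosome and passenger proteins were read through Birc5, Mki67 and Top2a. Birc5, which encodes survivin of the passenger complex, had the widest span of any member, 3.10 over the 12 pools. It was at -1.0, -1.62 and -0.86 in WT/HFD and -0.22, 0.84 and 1.48 in null/HFD pools, and at 0.22, -1.45 and -1.37 and 0.24, 0.35 and 0.60 on casein. The HFD groups did not overlap, and the difference of 1.86 ± 0.48 (adjusted p = 0.05005) missed the threshold. Mki67, the proliferation antigen Ki-67, was at -1.04, -1.08 and -0.22 in WT/HFD and -0.34, 0.71 and 0.51 in null/HFD pools, with null pool 1 inside the wild type range. On casein it was at 0.46, -0.73 and -0.43 and 0.22, 0.82 and 0.31, and its difference on HFD of 1.08 ± 0.37 (adjusted p = 0.101) did not pass. Top2a, the topoisomerase that untangles chromosomes, was at -0.33, -0.52 and -0.32 and -0.017, 0.32 and 0.28 on HFD, in wild type and null pools. Its casein values were 0.051, -0.46 and -0.37 and 0.058, 0.24 and 0.25, and it rose on HFD by 0.58 ± 0.14 (adjusted p = 0.0405), with no overlap on either diet.

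**Figure D2:**
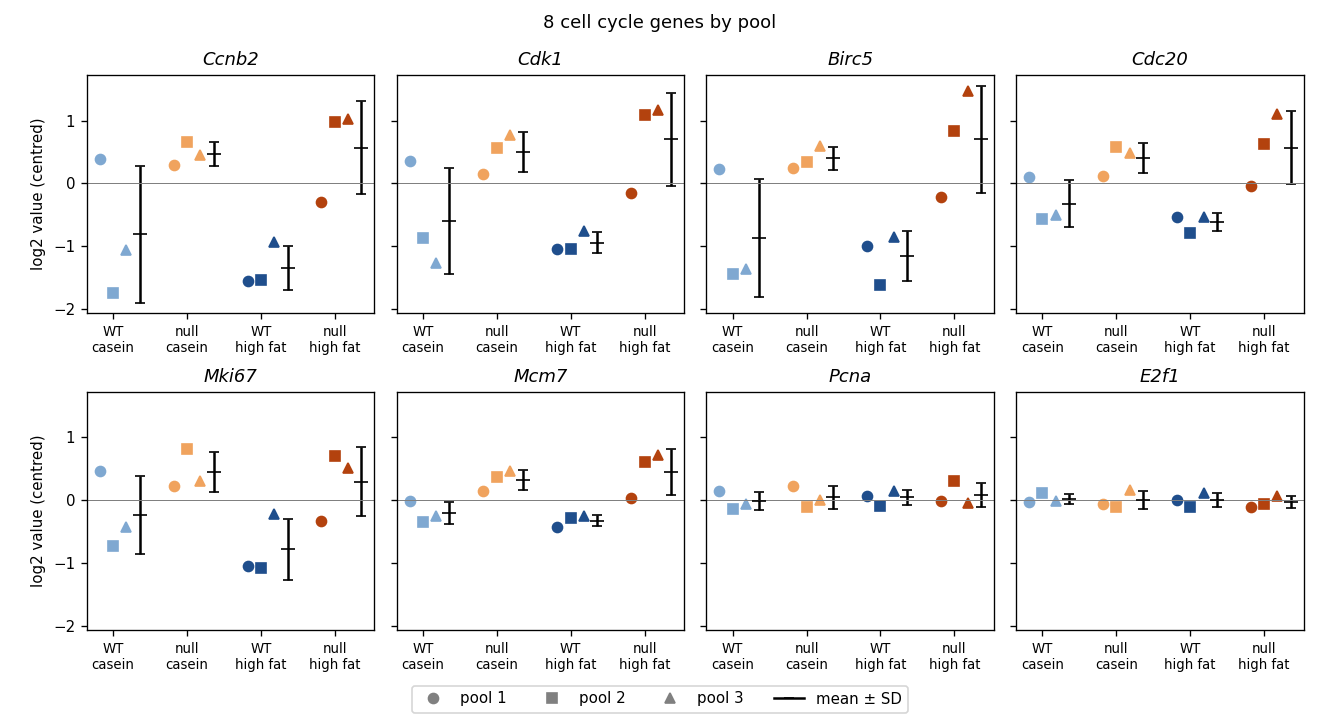
Centred log2 values of 8 cell cycle genes (panels) in the pools of the 4 groups, wild type (WT) and null on casein and on HFD; symbols mark pools 1 to 3 and black bars the mean ± SD of 3 pools. Ccnb2 and Cdk1 are lowest in WT/casein pools 2 and 3 and the WT/HFD pools, while Pcna and E2f1 stay between -0.13 and 0.31 and between -0.11 and 0.16.

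Spindle, cytokinesis and kinetochore genes had median differences of 0.36 and 0.44. Of 7 spindle and cytokinesis genes 1 rose on HFD, Kif20a, a kinesin of the cleavage furrow. It was at -0.45, -0.45 and -0.42 in WT/HFD and -0.16, 0.43 and 0.52 in null/HFD pools, at 0.25, -0.22 and -0.16 and 0.23, 0.16 and 0.48 on casein, and rose by 0.70 ± 0.18 (adjusted p = 0.0466). Kif23, a kinesin of the central spindle, was at -0.31, -0.15 and -0.025 and 0.045, 0.18 and 0.11 on HFD and at 0.030, -0.24 and -0.18 and 0.051, 0.079 and 0.23 on casein, with a HFD difference of 0.28 ± 0.097 (adjusted p = 0.112). Of this role Prc1, which bundles the central spindle, Kif11, Kif2c, Nusap1 and Tpx2 had differences of 0.67, 0.40, 0.36, 0.22 and 0.15, none past the threshold. None of the 6 centromere and kinetochore genes passed. Cenpa, the histone variant that marks centromeres, was at -0.30, -0.33 and -0.12 in WT/HFD and -0.11, 0.38 and 0.43 in null/HFD pools, and at 0.095, -0.11 and -0.049 and 0.067, 0.31 and 0.27 on casein. It differed by 0.48 ± 0.14 (adjusted p = 0.0618). Nuf2, of the kinetochore complex that holds microtubules, was at -0.44, -0.23 and -0.52 and -0.16, 0.29 and 0.65 on HFD and at 0.17, -0.39 and -0.58 and 0.16, 0.43 and 0.21 on casein, and differed by 0.66 ± 0.22 (adjusted p = 0.0956). Its partners Ndc80 and Spc25 differed by 0.11 and 0.14, and Cenpe and Cenpf by 0.58 and 0.39.

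The 6 subunits of the replicative helicase lay higher in all null than in all wild type pools on HFD, and 1 of them passed. Mcm7 was at -0.43, -0.29 and -0.26 in WT/HFD and 0.035, 0.61 and 0.71 in null/HFD pools, and at -0.017, -0.34 and -0.26 and 0.15, 0.37 and 0.46 on casein. It rose on HFD by 0.78 ± 0.17 (SE; adjusted p = 0.0307), or 1.72-fold, with no overlap on either diet. Mcm2 was at -0.43, -0.40 and -0.49 and -0.084, 0.51 and 1.13 on HFD, but on casein the groups overlapped, at 0.22, -0.29 and 0.11 and -0.29, 0.23 and 0.72. Its HFD difference was 0.96 ± 0.30 (adjusted p = 0.0821). Mcm4 and Mcm6 were at -0.33, -0.22 and -0.31 and at -0.50, -0.50 and -0.30 in WT/HFD pools, and at -0.016, 0.39 and 0.45 and at -0.050, 0.48 and 0.74 in null pools. On casein Mcm4 was at 0.099, -0.38 and -0.39 in WT/casein and 0.054, 0.19 and 0.22 in null pools, and Mcm6 at 0.17, -0.63 and -0.34 and -0.021, 0.32 and 0.34. Their HFD differences were 0.56 ± 0.15 (adjusted p = 0.052) for Mcm4 and 0.82 ± 0.23 (adjusted p = 0.0569) for Mcm6. Mcm5 was at -0.36, -0.39 and -0.18 and -0.14, 0.53 and 0.77 on HFD and at 0.15, -0.36 and -0.13 and 0.040, 0.33 and 0.57 on casein, and Mcm3 ranged from -0.30 to 0.49 over the pools. Mcm5 differed by 0.70 ± 0.22 (adjusted p = 0.0861) and Mcm3 by 0.48 ± 0.15 (adjusted p = 0.0858).

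Enzymes of nucleotide supply were divided. Rrm2, the subunit of ribonucleotide reductase whose level follows S phase, was at -0.88, -0.85 and -0.35 in WT/HFD and -0.15, 0.55 and 0.83 in null/HFD pools, and at 0.19, -0.69 and -0.28 and 0.21, 0.36 and 0.54 on casein. It rose by 1.11 ± 0.27 (adjusted p = 0.0436) on HFD, with no overlap on either diet. Tk1, the thymidine kinase of dividing cells, was at -0.73, -0.38 and 0.041 and -0.36, 0.25 and 0.80 on HFD and at -0.26, -0.52 and -0.026 and 0.026, 0.25 and 0.61 on casein, and its difference of 0.59 ± 0.29 (adjusted p = 0.237) did not pass. Rrm1, the partner of Rrm2, differed by 0.19 ± 0.070 (adjusted p = 0.121). Pcna, the sliding clamp of the DNA polymerases, was at 0.073, -0.091 and 0.15 and -0.0091, 0.31 and -0.046 on HFD and at 0.14, -0.13 and -0.056 and 0.23, -0.12 and 0.0091 on casein. The groups of Pcna overlapped on both diets, and its HFD difference was 0.039 ± 0.13 (adjusted p = 0.89), with a 95% interval of -0.24 to 0.32. Tyms, thymidylate synthase, differed by 0.051 ± 0.062 (adjusted p = 0.674), with a 95% interval of -0.087 to 0.19.

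The transcription factors Foxm1 and E2f1 varied little. Foxm1, an activator of mitosis genes, was at -0.035, -0.10 and -0.065 in WT/HFD and 0.087, 0.022 and 0.025 in null/HFD pools, and at -0.052, -0.091 and 0.035 and -0.038, 0.0063 and 0.068 on casein. Its groups did not overlap on HFD, and it differed by 0.11 ± 0.061 (adjusted p = 0.29), with a 95% interval of -0.023 to 0.25. E2f1, which activates replication genes, was at 0.0023, -0.11 and 0.11 and -0.10, -0.060 and 0.073 on HFD and at -0.031, 0.12 and -0.016 and -0.054, -0.11 and 0.16 on casein. The E2f1 groups overlapped on both diets, and its difference was -0.031 ± 0.092 (adjusted p = 0.88), with a 95% interval of -0.24 to 0.17. Whether the probe sets of these genes were above background cannot be read from centred values.

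**Figure D3:**
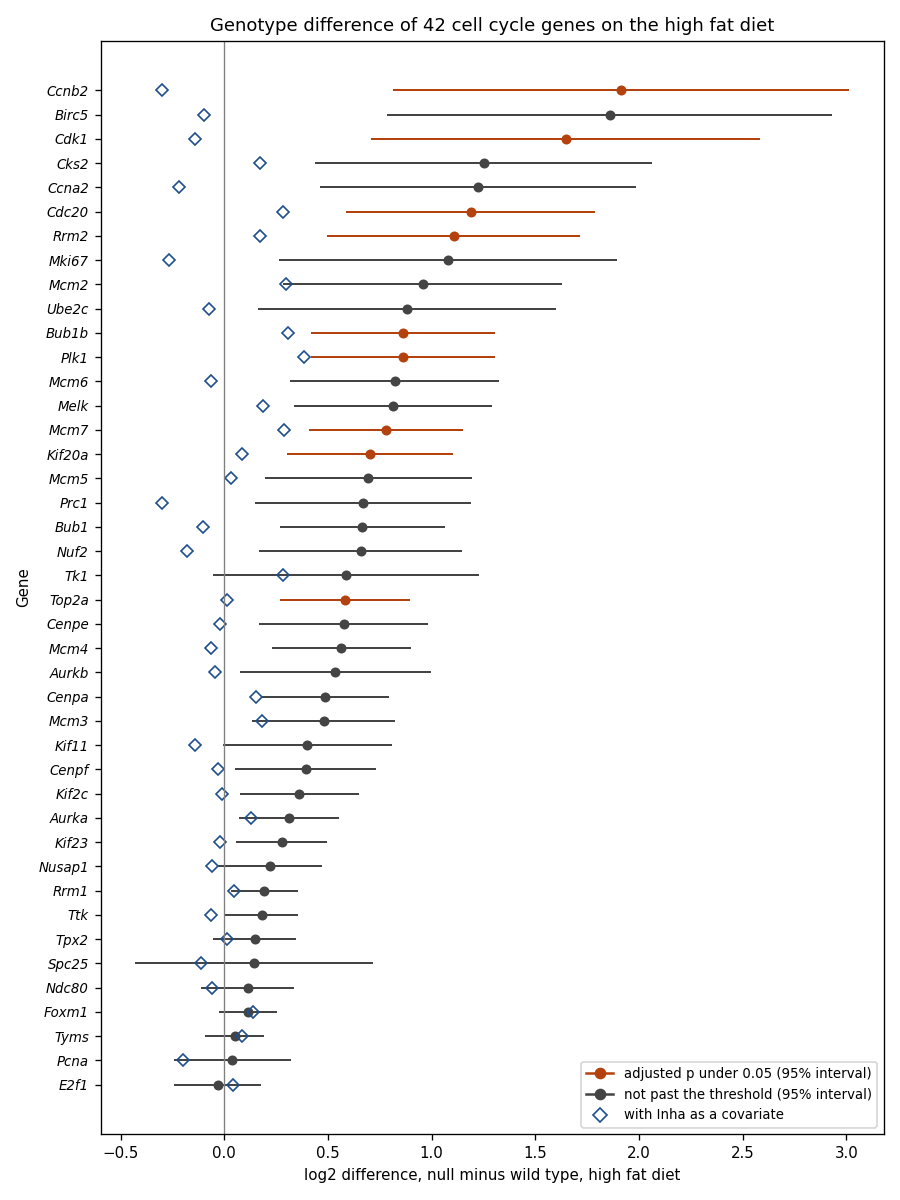
Difference in log2 value, null minus wild type on HFD, for the 42 cell cycle genes (filled circles, with 95% interval from the limma fit; orange where the adjusted p is under 0.05) and the same difference with Inha as a covariate (open diamonds). The circles run from -0.031 for E2f1 to 1.91 for Ccnb2, and the diamonds from -0.30 for Ccnb2 to 0.39 for Plk1.

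The count of 9 depended on single pools. No member passed without null/casein pool 2, without WT/HFD pool 1, 2 or 3, or without null/HFD pool 2 or 3. The count was 5 and 4 without null/casein pools 1 and 3, 15 without WT/casein pool 1, and 29 without null/HFD pool 1, the pool in which 39 of the 42 members were lowest of their group, where 37.7% of all genes were. The share of all genes called in each of these fits is not given here. These counts therefore show how far the calls moved, and nothing particular to the members. The differences of the 9 called genes stayed above 0 without any 1 pool, Ccnb2 from 1.69 to 2.35 and Mcm7 from 0.65 to 0.99. Their direction could not have turned, because for each of the 9 all null pools lay above all wild type pools on HFD. Over all alternatives tried the adjusted p of Ccnb2 ran from 0.00115 to 0.972 and that of Mcm7 from 0.000768 to 0.942.

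Probe sets of 1 gene often differed in the size of the difference. Of the 30 members with more than 1 probe set, all probe sets were higher in null pools on HFD for 21, and the probe sets lay on both sides of 0 for 9. Of all 97 probe sets 86 were higher. The 3 probe sets of Top2a differed by 1.5, 0.15 and 0.10, those of Bub1b by 1.49, 1.10 and -0.00085, and those of Cdc20 by 2.06, 1.10 and 0.40. The 4 probe sets of Mcm7 were closer, from 0.60 to 1.03. In 8 members the highest and lowest probe set were more than 1 apart.

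**Figure D4:**
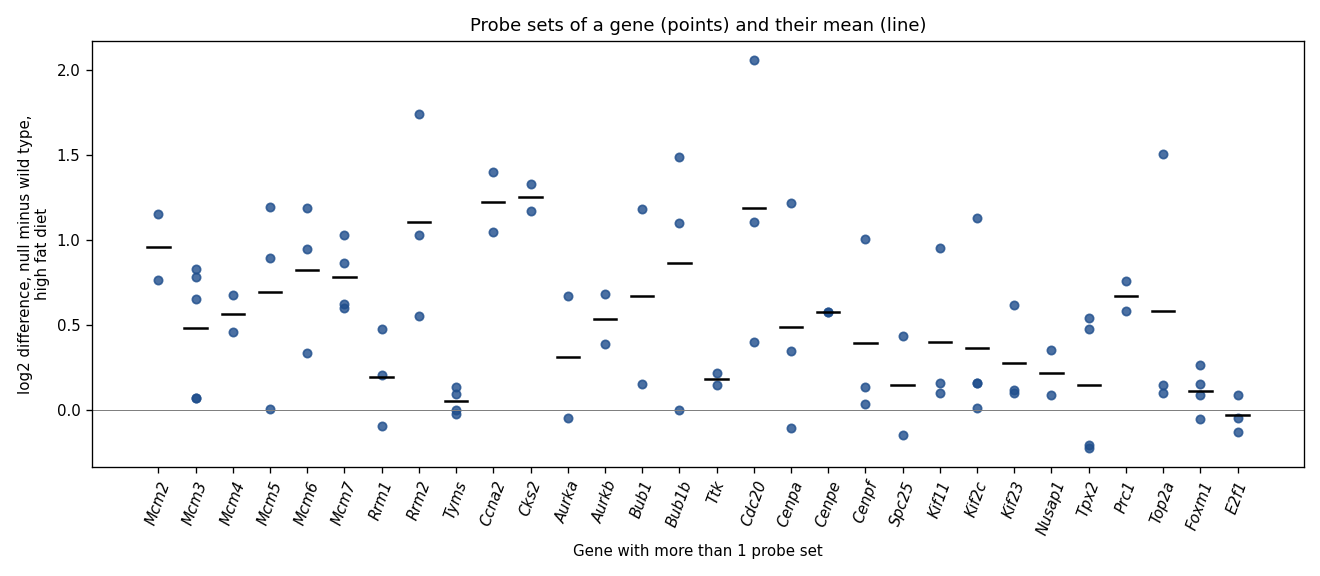
Difference in log2 value, null minus wild type on HFD, of each probe set (points) of the 30 cell cycle genes with more than 1, and their mean (lines). The points of Top2a run from 0.10 to 1.5, while those of Tyms and E2f1 lie near 0.

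On casein the members leaned the same way, but none passed. The median difference of null minus wild type was 0.36, beside -0.013 over all genes, and 39 of the 42 members were above 0. In limma 0 members passed after adjustment and 17 were higher and 0 lower at an unadjusted p under 0.05; among all genes 0% were called, and 3.62% and 4.50% were higher and lower at the unadjusted threshold. The null pools lay entirely above the wild type pools for 13 members and below for 0, where 5.40% and 6.57% of all genes did so. Birc5 differed by 1.26 ± 0.48 (adjusted p = 0.575), Ccnb2 by 1.28 ± 0.49 (adjusted p = 0.58) and Cdk1 by 1.09 ± 0.42 (adjusted p = 0.58), with wild type standard deviations of 0.94, 1.09 and 0.85 over 3 pools. In that group pool 1 stood apart: it lay above pools 2 and 3 for 37 of the 42 members (88.1%), against 29.0% of all genes. For 28 members it was also at or above the lowest null/casein pool, which pools 2 and 3 reached for 3 and 5 members. The share of all genes that did so is not given here, so these counts are a description only. Without WT/casein pool 1 the median difference of the members was 0.49, and still none passed.

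Averaged over both diets 19 members rose in null pools and 0 fell, beside 4.09% and 3.42% of all genes and 7.52% in either direction. They were the 9 called on HFD and Birc5, Mcm4, Melk, Bub1, Mcm6, Ccna2, Aurka, Nuf2, Kif23 and Cenpa. Ccnb2 rose by 1.60 ± 0.35 (adjusted p = 0.0288), Birc5 by 1.56 ± 0.34 (adjusted p = 0.0288), Cdk1 by 1.37 ± 0.30 (adjusted p = 0.0288) and Mcm7 by 0.66 ± 0.12 (adjusted p = 0.0169). The median over the members was 0.52, beside -0.025 over all genes. Without null/casein pool 2 or null/HFD pool 2 the count was 0, and without null/casein pool 3 or WT/casein pool 2 it was 2. It was 3 without null/HFD pool 3, 5 without WT/HFD pool 1 or 2, and 6 without WT/casein pool 3 or WT/HFD pool 3. Without null/HFD pool 1 it was 32. For these fits, too, the share of all genes called is not given. This comparison uses the pools of both genotype comparisons above and is no separate evidence.

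Between the diets no member passed the threshold in either genotype, and neither did any other gene: 0% of all 18194 genes were called in wild type, in null mice and for the interaction. In wild type mice the median difference of HFD minus casein was -0.18, with 37 of 42 members below 0, beside 0.0010 over all genes. In limma 0 members passed after adjustment, as did 0% of all genes, and 0 were higher and 2 lower at an unadjusted p under 0.05, beside 4.68% and 2.93% of all genes. The HFD pools lay entirely below the casein pools for 5 members, Rrm1, Kif20a, Mcm2, Plk1 and Cenpa, and above for 0, where 4.86% and 7.07% of all genes did so. Without WT/casein pool 1 the median was -0.028. In null mice the median was 0.039, with 27 members above 0. The HFD pools lay entirely above the casein pools for 1 member, Tyms, and below for 0, where 4.89% and 5.70% of all genes did so. In limma 0 members and 0% of all genes passed after adjustment. At an unadjusted p under 0.05 there were 0 members, beside 2.07% and 1.93% of all genes higher and lower. Ccnb2 differed between the diets by -0.53 ± 0.49 (adjusted p = 0.797) in wild type and 0.10 ± 0.49 (adjusted p = 1) in null mice, with 95% intervals of -1.63 to 0.56 and -0.99 to 1.2. For the interaction, the diet difference in null minus that in wild type mice, 0 members and 0% of all genes passed in limma. At an unadjusted p under 0.05 there were 0 members, beside 2.70% and 3.41% of all genes above and below 0. The interaction of Ccnb2 was 0.64 ± 0.70 (adjusted p = 0.864), with a 95% interval of -0.91 to 2.18.

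Inha, the ovarian signal, fell into 2 clusters of pools. It was at 0.73, -5.68 and -5.04 in WT/casein pools 1, 2 and 3 and at -5.78, -5.27 and -5.78 in WT/HFD pools. In null pools it was at -0.15, 0.72 and 0.69 on casein and 0.15, 1.89 and 1.51 on HFD. So 5 pools, all wild type, lay from -5.78 to -5.04, and 7 pools, the 6 null pools and WT/casein pool 1, from -0.15 to 1.89, with a gap of 4.89 between them. Inha rose in null pools on HFD by 6.79 ± 1.32 (SE; adjusted p = 0.0261). Read pool by pool, the 5 pools with the lowest Inha had member medians of -0.37, -0.23, -0.27, -0.38 and -0.20 in rising order of Inha. The next were null/casein pool 1, with Inha at -0.15 and a member median of 0.084, and null/HFD pool 1, with 0.15 and -0.10. Null/casein pool 3, null/casein pool 2 and WT/casein pool 1 had Inha of 0.69, 0.72 and 0.73 beside member medians of 0.33, 0.27 and 0.11. Null/HFD pools 3 and 2, with Inha at 1.51 and 1.89, had medians of 0.49 and 0.44.

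**Figure D5:**
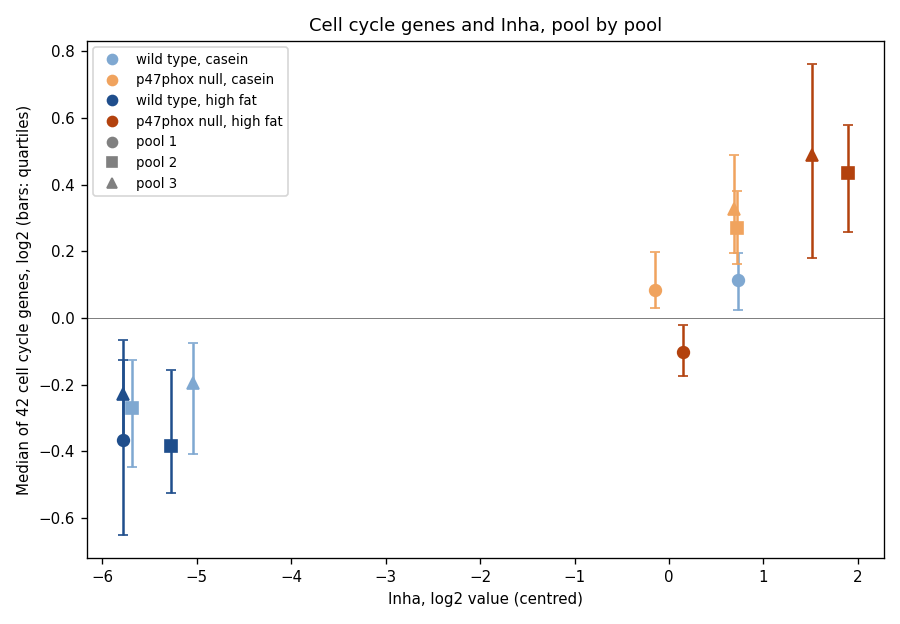
Median of the 42 cell cycle genes in each of the 12 pools (vertical axis, log2, with bars from the lower to the upper quartile of the genes) against Inha (horizontal axis, log2), coloured by group with symbols for pools 1 to 3. The 5 pools with Inha below -5 have medians from -0.38 to -0.20, and WT/casein pool 1 lies at 0.11 among the null pools.

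Because the pools form 2 clusters, no correlation over all 12 is given, and the cluster of 5 pools is too small for one. Within the 7 pools of the other cluster every one of the 42 members had a Pearson r with Inha above 0, with a median of 0.74. By an exact permutation test of r in these 7 pools, two-sided, 19 of 42 had an unadjusted p under 0.05. After Benjamini-Hochberg adjustment over the 42, 0 passed in this test (smallest adjusted p = 0.0949), and by Spearman's rho 0 passed. The share of all genes with such an r is not given here, so these counts show nothing particular to the members. The 7 pools mix genotypes and diets, and the permutation was made across the groups. The highest r was that of Mcm4, 0.91 (rho = 0.79, exact permutation p = 0.00873 and 0.048). Cdk1 had r = 0.89 (rho = 0.79, exact permutation p = 0.0101 and 0.048) and Ccnb2 r = 0.84 (rho = 0.82, exact permutation p = 0.0179 and 0.0341). The lowest were Cenpf, 0.030, Foxm1, 0.086, Pcna, 0.13, and E2f1, 0.24, where the exact permutation p was 0.948, 0.851, 0.772 and 0.632. Leaving out the 2 pools farthest from the median of Inha, null/HFD pool 2 and null/casein pool 1, left 5 pools. Over these, r was above 0 for 40 of 42 members, with a median of 0.78. It was below 0 for Foxm1, -0.35, and Pcna, -0.16. Like the cluster of 5 pools, these are too few for a test. The members also share the arrays, so the values are a description only. By the rank alone of r with Inha over the 12 pools, a description, the closest members were Bub1, Top2a and Ccnb2, and the least close were E2f1, Tyms and Pcna.

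With Inha as a covariate in the fit the median genotype difference of the members on HFD turned from 0.58 to -0.014, with 20 of 42 above 0. In limma no member passed in that fit, and neither did any other gene (0% of all genes). At an unadjusted p under 0.05 there were 0 members, beside 5.19% of all genes, 2.7% higher and 2.5% lower. Ccnb2 turned to -0.30, Cdk1 to -0.14 and Birc5 to -0.096, while Plk1 was at 0.39, Bub1b at 0.31, Mcm7 at 0.29 and Cdc20 at 0.28. The median standard error grew from 0.18 to 0.28. On this diet the genotypes do not overlap in Inha, so Inha and genotype cannot be told apart there. WT/casein pool 1 is the single wild type pool in the upper cluster. Without it the median of the members with Inha as a covariate was -1.21, with array weights it was -1.06 and without null/HFD pool 1 it was 0.22.

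Other markers were read in the same pools. Among all genes 3.21% were called higher and 2.71% lower in null pools on HFD. Of 11 granulosa and luteal cell markers 7 rose in null pools on HFD and 0 fell, with a median difference of 1.96, and of 10 oocyte markers 3 rose, with a median of 1.22. The median of the granulosa and luteal list was 0.15, -1.16 and -0.88 in WT/casein pools and -1.04, -1.12 and -1.15 in WT/HFD pools. It was -0.051, 0.13 and 0.24 in null/casein and 0.19, 0.71 and 0.81 in null/HFD pools 1, 2 and 3, so it was high and low in the same pools as Inha. Inha is itself among the 11 markers and among the 7 that rose, so this likeness is partly built in. Not every marker of the list followed: in WT/casein pool 3, where the list median was -0.88, Star stood at 4.30 and Cyp11a1 at 0.11. In that pool the adrenal gland markers had a median of 2.38, and a link with Star or Cyp11a1 was not tested. The 10 oviduct and uterine epithelium markers had a median difference of 2.08, with 0 past the threshold. They were low in null/casein pool 1, at a median of -0.53 with the oviduct glycoprotein Ovgp1 at -3.09, where the members stood at 0.084 and Inha at -0.15. In WT/casein pool 3, with the lymphocyte median of 1.70, the members stood at -0.20 and Mki67 at -0.43. Skeletal muscle also differed among the 7 pools with high Inha. Its median was 3.77, 2.16 and 3.10 in null/HFD pool 1, null/casein pool 1 and WT/casein pool 1, where the members were lowest, at -0.10, 0.084 and 0.11. In null/casein pools 2 and 3 and null/HFD pools 2 and 3 it was 0.65, -0.89, -2.90 and -2.06, with members at 0.27, 0.33, 0.44 and 0.49. The 8 mature adipocyte markers had medians of 0.017, -0.33 and -0.58 in null and 0.21, 0.21 and 0.15 in WT/HFD pools, and 3 of them fell. Of 7 mesothelium markers, with a median difference of 0.66, 1 rose, Wt1, by 2.61. Wt1, like Inha, was low in WT/casein pools 2 and 3, at -1.73 and -1.62, and in WT/HFD pools, at -0.55, -1.77 and -2.68. Krt19 is in both the mesothelium list and the oviduct and uterine epithelium list. Of 10 macrophage markers 0 passed, with a median of -0.50. Of 5 erythroid markers 1 fell, and 0 of the lymphocyte, mammary epithelium, skeletal muscle, liver and adrenal gland markers passed. The part of these tissues in the cell cycle differences was not tested. The fit with Inha cannot test it, because on HFD the genotypes do not overlap in Inha.

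Lists of cell cycle genes outside the set had smaller median differences on HFD than the members. Members and lists were chosen with earlier results of these data known, so this contrast is a description only. Of 29 measured mitosis genes outside the set 4 rose and 0 fell, beside 3.21% and 2.71% of all genes, with a median difference of 0.35. Stmn1, a microtubule regulator, rose by 1.5 ± 0.33 (adjusted p = 0.0316), Ect2, the exchange factor of cytokinesis, by 1.14 ± 0.29 (adjusted p = 0.0477), Fbxo5, an inhibitor of the anaphase-promoting complex, by 0.76 ± 0.15 (adjusted p = 0.0261), and Cenpn, a centromere protein, by 0.54 ± 0.12 (adjusted p = 0.0314). Stmn1 was at -1.24, -0.85 and -0.62 in WT/HFD and 0.019, 0.73 and 1.05 in null/HFD pools. Of 23 replication genes outside the set 1 rose and 0 fell, a count near the 3.21% of all genes called higher, with a median of 0.15. The gene that rose was Uhrf1, which keeps DNA methylation at replication forks, by 1.04 ± 0.26 (adjusted p = 0.0461). The licensing factor Cdt1 differed by 0.57 ± 0.15 (adjusted p = 0.0504), the ligase Lig1 by 0.73 ± 0.20 (adjusted p = 0.0539) and the clamp loader subunit Rfc5 by 0.41 ± 0.12 (adjusted p = 0.0672), none past the threshold.

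Among 9 cyclins and kinases of the G1 phase, before DNA replication, 2 rose and 0 fell, beside 3.21% and 2.71% of all genes, with a median of 0.23. Cdk4 rose by 0.87 ± 0.20 (adjusted p = 0.0351) and Cdk6, its relative, by 0.60 ± 0.13 (adjusted p = 0.0316); both pair with D-type cyclins. Of 10 Cdk inhibitors and pocket proteins, which hold cells out of the cycle, 1 rose and 0 fell beside the same shares of all genes, with a median of -0.13. The inhibitor that rose was Cdkn1b, by 1.19 ± 0.24 (adjusted p = 0.0281). It was at -0.66, -0.31 and -0.53 in WT/HFD and 0.40, 0.63 and 1.04 in null/HFD pools, and at -0.011, -0.85 and -0.70 and 0.64, 0.19 and 0.014 on casein. WT/casein pool 1 stood above pools 2 and 3 of its group and below the null/casein pools. Rb1, the retinoblastoma protein, differed by -0.34 ± 0.12 (adjusted p = 0.104) and the inhibitor Cdkn2c by -0.49 ± 0.18 (adjusted p = 0.124), neither past the threshold.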

How the data were processed

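Total RNA of abdominal fat pads was measured on 12 Affymetrix arrays, 1 per pool, labelled from 8 µg of total RNA per the labels' protocols. GCOS and RMA are the tools named per the submitters' processing notes, without version or setting. The deposited values were taken as log2 values, since RMA gives that base, and the authors had centred each probe set: the median over the 12 arrays departs from 0 by more than 1e-06 in 0 of 45101 probe sets. Levels and signal over background are therefore not readable. Of the probe sets 34958 have 1 gene in the platform annotation and were used, 932 have several and 9211 none. Symbols were updated through the RefSeq table of GRCm38.p6 for 34754. Averaging the probe sets of a gene gave 18194 genes, and no filter on low values was applied.

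The test was that of limma 3.58.1 (R 4.3.3, functions lmFit, contrasts.fit and eBayes), 1 fit of 4 group means to all 12 arrays, with 8 residual and 2.5 prior degrees of freedom. Two-sided p-values were adjusted by Benjamini and Hochberg over all genes, with a threshold of 0.05. Errors after ± are standard errors unless called SD, with 3 pools a group. The script was tested on simulated data. Values by pool were named for 17 members listed in the plan and for each other member that passed in a comparison, and up to 4 genes in each list outside the set, those that passed first. The members and lists were chosen with earlier results of these data known. Alternatives were the probe set summary, normalization, a span filter, array weights, the variance model, the samples in the fit, Inha as a covariate, the pool number as a block, and leaving out each pool.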

Additional observations from a re-analysis of the deposited data

How the results depend on the processing

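The count of members called on HFD, 9 of 42, was 5 with the median of probe sets and 5 in a fit of the pools of these 2 groups alone. It was 1 after quantile normalization again, 2 with the pool number as a replicate block and 0 with Inha as a covariate. It was 16 among genes with at least the median span, 16 with a trended and robust eBayes and 36 with array weights, whose estimate did not converge. Leaving out 1 pool gave 0 to 29. Averaged over both diets the count of 19 was 36 with array weights, 0 with Inha as a covariate, 8 with the replicate block and 0 to 32 without 1 pool. The share of all genes called under each alternative is not given beside these counts, except for Inha as a covariate on HFD, where it was 0%. With Inha as a covariate Ccnb2 and Cdk1 on HFD turned to -0.30 and -0.14, and averaged over both diets the values were Mcm4 -0.017, Mcm6 -0.037, Ccna2 -0.17, Ccnb2 -0.12, Cdk1 -0.020, Bub1 -0.064, Nuf2 -0.054; the cause was not tested. The other comparisons, with 0 members called, stayed at 0 under every alternative run, and so did the count of members correlated with Inha. Without the 2 pools farthest from its median only 5 pools remained, and no test was made. Of the single-member values on HFD 732 kept their side of the threshold, 103 lost it and 77 passed anew. The pool numbers do not pair the samples: deviations of same-numbered pools correlated from -0.62 to 0.59, over 0.1 in 3 of 18 pairs, and 4 of 12 pools were closest to a pool of their own number. The number of arrays and the centring, which hides signal over background, limit what can be read.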

Other observations

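The genes outside the set whose values most resembled the median of the 42 members over the 12 pools were Tmem164 (Pearson r = 0.983), Defb19 (r = 0.980), Zkscan17 (r = 0.977), Cdca8 (r = 0.975) and H2az1 (r = 0.974). They are the closest of all other genes searched, share the arrays with the members, and carry no p-value. Their r was taken over both clusters of pools and includes the split between them.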
